A study of Mus musculus with 12 samples.

Results

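The genes described here are 51 genes of homologous recombination, the Fanconi pathway, DNA end joining and poly(ADP-ribose) repair, given by name and not by their values. All 51 were among the 21743 genes of a single-cell count table, and none of the members was chosen for its level. Homologous recombination mends a broken chromosome or a broken replication fork with the sister chromatid as template. BRCA1 and BARD1 favour this route by promoting the resection of DNA ends, and BRCA2 and PALB2 act after resection, at the step where the broken strand finds its template. Proteins such as 53BP1 (encoded by Trp53bp1), RIF1 and MAD2L2 protect the ends from resection and channel them to end joining, and the Fanconi proteins handle crosslinked forks. Many of these genes are known to be transcribed mainly in S and G2 phase, so a tissue that divides more carries more of their RNA.

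The material came from a pair of mice with an MMTV-Cre transgene, which drives Cre recombinase in mammary epithelium, and a floxed Brca1 allele on both chromosomes, on a mixed C57BL/6 and 129/Sv background. From mouse 1 came the gland libraries MG1 (2 libraries) and the tumor libraries MT1 (5 libraries), and from mouse 2 MG2 (2 libraries) and MT2 (3 libraries). Glands were the fourth mammary pair, and all suspensions had been depleted of hematopoietic and endothelial cells before Drop-seq, a droplet method that counts unique molecular identifiers (UMIs) at the 3′ end of each RNA. All groups share the floxed genotype, and there was no Brca1 wild-type control. Recombination of the floxed exons cannot be read from 3′ counts. Libraries of 1 group come from 1 tissue of 1 mouse, so p-values cover the spread between libraries and not between mice.

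Libraries held 105 to 4874 cells and 693333 to 14841414 UMIs, and they shared between 0 and 7 cell barcodes. After 1131 stromal cells, which clustered by fibroblast, endothelial or immune markers, were set aside, 20026 cells remained. The 5 epithelial markers (Epcam, Krt8, Krt18, Cdh1 and Cldn7) summed to 8790 to 13138 CPM in the glands, 6285 to 7974 CPM in MT1 and only 676 to 910 CPM in MT2. The 7 fibroblast markers summed to 295 to 781 CPM in the glands, 336 to 466 CPM in MT1 and 3506 to 3875 CPM in MT2. The defining epithelial markers were thus at a low level in MT2, whose cells had been enriched as epithelial, although none of the 5 was at 0 in any tumor library. The immune markers summed to 45 to 126 CPM in MT1 and to 7 to 70 CPM in the other groups. Of these 8 markers, 5 were at 0 in MT1 library 1 and 5 in MG1 library 2. Cd74, 1 of the 8, was among the top genes of a cluster with 2453 MT1 cells. The immune-like cluster, set aside as stromal, held 3 MT1 cells and 182 MT2 cells. The part of these differences in the results was not tested.

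Some features of the table bear on the lowest values. The table lists few genes in 1 to 3 cells of a group (212 genes in MG1 against 789 genes in exactly 4 cells), the pattern left by a filter of 4 cells per group. A gene listed at 0 may thus have had UMIs in up to 3 cells. Among the members, 13 were listed at 0 in MG1 and 3 of these also in MG2. Against such a group a fold is given as a lower bound, over a floor of 3 UMIs in the whole group, which is 1.00 CPM in MG1 and 0.356 CPM in MG2. The bound assumes 1 UMI in each such cell and leaves out counting error. A cell can hold more, as with Brca2 in MG1, at 29 UMIs in 19 cells. The other feature is MG1 library 2, where 1 UMI equalled 1.70 CPM.

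Levels are given as CPM, the UMI counts scaled to the TMM-adjusted library total. Cluster levels, and mean levels along the score inside the tumors, are scaled to the plain UMI total instead. A cell's cycling score is its summed UMIs of Top2a, Mki67 and Cenpf, genes of the G2 and M phase. Score 0 was held by 631 of the MG1 cells (94.3%), 1991 of the MG2 cells (94.4%), 5232 of the MT1 cells (70.1%) and 3495 of the MT2 cells (35.7%). Score 3 or more was held by 6 MG1 cells, 37 MG2 cells, 981 MT1 cells (13.2%) and 3689 MT2 cells (37.7%). Cells were summed per library, over all cells and again within scores of 0, 1 to 2 and 3 or more, and tested with edgeR's quasi-likelihood test. Every adjusted p given here is from that test with Benjamini-Hochberg adjustment over all genes in the fit, and a gene is called where it is under 0.05. Tests cover 47 members over all cells, 41 at score 0, 33 at scores of 1 to 2 and 42 at 3 or more. Members fail the filter on low counts where their level is low, so the tested members are not all members.

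Promoters of 6 members are shown: the targeted gene, 4 members that rose with division in both tumors, and 1 that did not. The bases before the start are printed, with motif matches on either strand in capitals. RefSeq (GRCm38.p6) gave a promoter for 40 of the 51 members. The motifs searched, on both strands from 250 bases before to 50 bases after the start, were an E2F-type site (TTTNNCGC), the cell cycle homology region (TTTGAA) and the NF-Y box (CCAAT). Bard1, Brip1, Brca2 and Rad51ap1 rose in both tumors and with the score inside both tumors, and Trp53bp1 fell in both tumors and showed no call with the score.
Brca1 (chr11:101551956-101552205, minus strand): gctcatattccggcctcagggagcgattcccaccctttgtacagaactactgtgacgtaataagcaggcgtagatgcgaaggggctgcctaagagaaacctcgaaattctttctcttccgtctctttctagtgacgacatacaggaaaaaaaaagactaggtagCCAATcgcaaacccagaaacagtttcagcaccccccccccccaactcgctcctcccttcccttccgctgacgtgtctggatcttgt
Bard1 (chr1:71102973-71103222, minus strand): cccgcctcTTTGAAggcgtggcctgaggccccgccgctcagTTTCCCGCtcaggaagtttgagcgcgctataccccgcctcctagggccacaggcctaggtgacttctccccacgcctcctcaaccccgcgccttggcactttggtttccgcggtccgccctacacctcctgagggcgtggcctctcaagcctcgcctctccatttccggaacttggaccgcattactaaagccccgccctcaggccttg
Brip1 (chr11:86201194-86201443, minus strand): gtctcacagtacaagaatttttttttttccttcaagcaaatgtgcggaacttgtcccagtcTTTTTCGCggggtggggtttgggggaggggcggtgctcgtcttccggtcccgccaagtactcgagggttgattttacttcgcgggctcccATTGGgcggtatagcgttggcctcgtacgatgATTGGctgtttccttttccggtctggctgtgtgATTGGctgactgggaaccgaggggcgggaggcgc
Brca2 (chr5:150522371-150522620, plus strand): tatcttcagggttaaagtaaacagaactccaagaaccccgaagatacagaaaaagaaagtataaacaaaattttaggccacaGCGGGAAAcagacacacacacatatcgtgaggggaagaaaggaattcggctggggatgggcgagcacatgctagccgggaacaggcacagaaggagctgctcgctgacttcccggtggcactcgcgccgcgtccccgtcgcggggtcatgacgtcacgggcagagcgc
Rad51ap1 (chr6:126939588-126939837, minus strand): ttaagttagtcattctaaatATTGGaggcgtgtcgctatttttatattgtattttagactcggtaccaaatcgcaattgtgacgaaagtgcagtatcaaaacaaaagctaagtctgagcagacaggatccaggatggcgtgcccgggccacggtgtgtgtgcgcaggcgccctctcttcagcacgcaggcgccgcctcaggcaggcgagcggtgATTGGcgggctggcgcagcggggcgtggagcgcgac
Trp53bp1 (chr2:121271408-121271657, minus strand): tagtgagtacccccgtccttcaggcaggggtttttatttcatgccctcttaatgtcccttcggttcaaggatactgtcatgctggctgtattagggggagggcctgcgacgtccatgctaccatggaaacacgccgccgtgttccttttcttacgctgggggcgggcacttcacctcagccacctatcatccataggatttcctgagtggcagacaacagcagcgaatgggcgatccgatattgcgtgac
The E2F-type letters occurred in the promoter window of 9 of 40 members (22.5%), against 5.93% of the 27025 genes with a promoter in the table. They occurred in 7 of the 25 matched members whose RNA rose with the cycling score in both tumors and in 0 of the 10 matched members that rose in neither. The CCAAT box occurred in 23 of 40 members (57.5%) against 41.1% of all genes, and in 60% of both of these subsets. The TTTGAA letters occurred in 4 of 40 members (10.0%), against 20.2% of all genes. The Bard1 window held 2 E2F-type matches, 1 of them past the start and not printed, and the Trp53bp1 window held none of the motifs. A match is a description of letters and does not show that a factor binds.

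Over all cells the members were mostly higher in the tumors, with a smaller group lower. In MT1 against MG1, 26 of 47 tested members were higher and 5 lower, where 32.1% and 27.1% of all 13646 genes tested were higher and lower. In MT2 against MG2, 24 members were higher and 8 lower, against 32.8% and 34.2% of all genes. The median member changed by 0.91 (log2) in MT1 and 0.86 in MT2, and the median of all genes by 0.11 and -0.05. The 20 members higher in both tumors were Brca1, Bard1, Brip1, Brca2, Rad51b, Rad51c, Rad51ap1, Rad54b, Rbbp8, Mre11a, Exo1, Fanca, Fancb, Topbp1, Chek1, H2afx, Lig4, Polq, Parp1 and Slfn9. Rad50, Atr, Mdc1 and Trp53bp1 were lower in both. Of the 9 members called higher in MT1 while listed at 0 in MG1, 6 were still called once 3 UMIs were put into MG1, an alternative chosen after seeing the data, and Rad51c, Fancb and Polq were not. With the 4 groups as single sums and the mouse as a replicate block, edgeR called 0 of 50 members and 0 of 14950 genes, with 11 members at an unadjusted p under 0.05. The change differed between the mice for 15 members, against 43.6% of all genes, and for 12 of these once 3 UMIs were put in. Without MG1 library 1 the count of members called in MT1 went from 31 to 22.

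**Figure D1:**
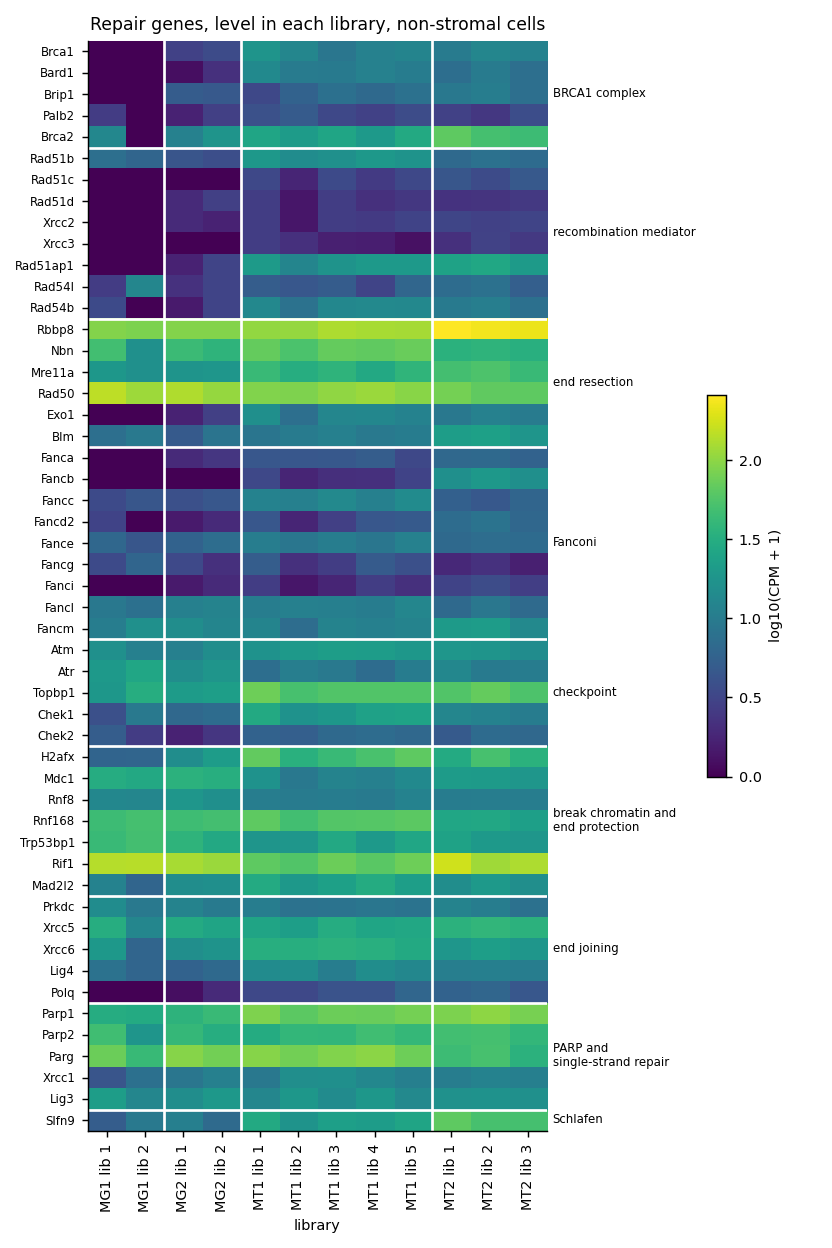
Level of each of the 51 members (rows, grouped by role) in each of the 12 libraries (columns), as log10(CPM + 1) in colour. The upper rows (Brca1 to Brip1) are dark in MG1 and brighter than there in both tumors, and Rad50 and Rif1 are bright in glands and tumors.

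Within cells of score 0 fewer members were higher in the tumors. In MT1 against MG1, 19 of 41 tested members were higher and 6 lower, against 30% and 25.5% of all 13229 genes. In MT2 against MG2, 13 were higher and 8 lower, against 33.2% and 29.5% of all genes, so that the share of members higher in MT2 (13 of 41) was near that of all genes. The median member change was 0.66 in MT1 and 0.21 in MT2. All 5 members lower in MT1 over all cells and all 8 lower in MT2 were also lower at score 0, and Prkdc joined them in MT1. Of the 24 members higher in MT2 over all cells, 12 were higher at score 0, 7 were tested and not called (Brca1, Brip1, Brca2, Rad54b, Blm, Chek2 and H2afx) and 5 were not tested. The change differed between the mice for 9 members, against 40.6% of all genes. Calls at score 0 depended on single libraries. Without MG1 library 1 the MT1 count went from 25 to 13, with Brca1, Bard1, Brip1, Rad51ap1, Rad54b, Mre11a, Exo1, Fancc, Topbp1, Chek1, Prkdc, Lig4, Parp1, Xrcc1, Slfn9 and Rad50 no longer called. The MT2 count went from 21 to 14 without MG2 library 1 and without MT2 library 2, where Bard1, Exo1, Chek1, Lig4 and Xrcc5 were lost in both. The summed level of all 51 members was 815 to 1012 CPM in MT2 and 829 to 883 CPM in MG2 at score 0, while over all cells it was 1191 to 1393 and 905 to 943 CPM. In mouse 1 the sums at score 0 were 812 to 986 CPM in MT1 and 818 to 917 CPM in MG1. A sum follows its most abundant members and does not show how the others changed. In MG1 library 1 at score 0, Rbbp8, Rad50 and Rif1 held 214, 329 and 305 of 2116 member UMIs. Rad50 and Rif1 were among the members lower in MT1.

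A score of 0 did not make the cells alike in S phase. At score 0, 12 of 16 S phase genes (such as the Mcm genes and Rrm2) were higher in MT1 and 11 in MT2, with medians of 1.84 and 1.65 (log2). With a score over a wider list of 35 cycling genes, which holds 14 of those S phase genes and no member, score 0 was held by fewer cells, 177 to 643 cells per MT1 library and 254 to 528 cells per MT2 library. Then 27 members could be tested, and 4 were higher and 4 lower in MT1 (22.7% and 22.6% of all genes), and 3 higher and 6 lower in MT2 (26.9% and 30.9%). The median member change was 0.00 in MT1 and -0.21 in MT2. The members higher under this stricter score were Fancc, H2afx, Slfn9 and Topbp1 in MT1 and Fancc, Rbbp8 and Slfn9 in MT2. Those lower were Mdc1, Rad50, Rif1 and Trp53bp1 in MT1, and in MT2 these 4 with Parg and Rnf168. In MT2, Fancc and Rif1 had not been called over all cells or at score 0 of the shorter list. Brca1, Bard1 and Rad51ap1 had too few UMIs there to be tested.

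**Figure D2:**
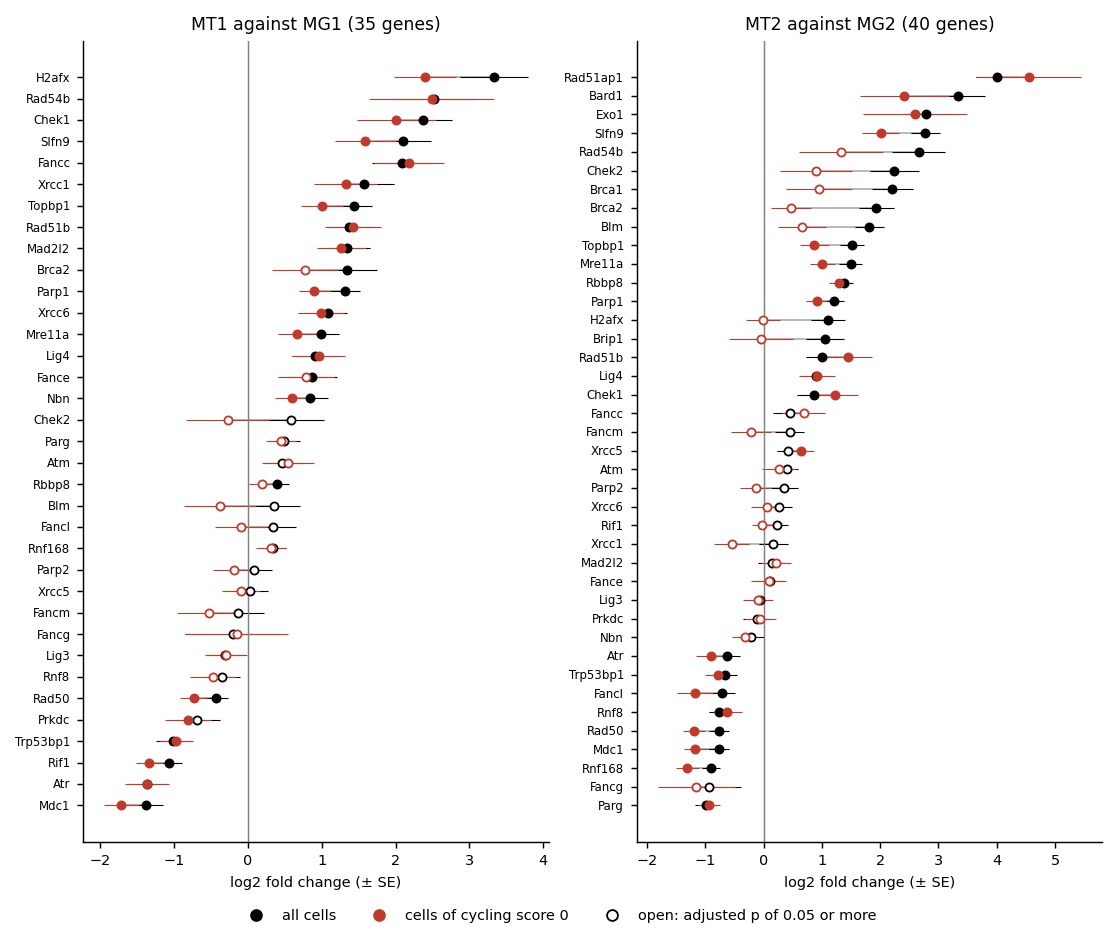
Log2 fold change (x axis, ± SE) of tumor against gland over all cells (black) and in cells of score 0 (red) for members tested in both and not listed at 0 in the gland, filled where called. In MT2 the red points of Brca1, Brca2 and H2afx lie nearer to 0 than the black ones, and those of Rnf168, Mdc1 and Rad50 lie further below 0.

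Brca1 itself (chromosome 11, 101488764 to 101551955, minus strand in GRCm38) encodes the ubiquitin ligase subunit that the model deletes. Its level was 0 in both MG1 libraries, 1.91 and 2.58 in MG2, 16.5, 11.8, 7.82, 10.4 and 11.4 in MT1 and 9.06, 11.7 and 10.7 CPM in MT2. Both tumors lay above both glands, and the tumors overlapped. The pooled MT1 level was at least 10.4-fold higher than that of MG1, and MT2 rose against MG2 by 2.21 ± 0.35 (log2 ± SE, adjusted p = 2.5e-05). At score 0 its level was 0 in both MG1 libraries, 1.5 and 1.05 in MG2, 5.22, 5.10, 2.57, 2.74 and 5.58 in MT1 and 2.82, 3.11 and 1.66 CPM in MT2. MT1 was still called against MG1, whereas MT2 against MG2 gave 0.95 ± 0.57 with adjusted p = 0.15. Of the 412 Brca1 UMIs of MT2, 318 came from cells of score 3 or more and 27 from cells of score 0. Of the 19 in MG2, 10 came from cells of score 0. Among gland clusters, the luminal hormone-sensing-like cells had 2.41 CPM (95% interval 1.24 to 4.2), the secretory-like cells 0.821 CPM (95% interval 0.224 to 2.10) and the basal-like cells 1.09 CPM (95% interval 0.0276 to 6.07), where the intervals are exact Poisson and cover counting error only.

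Of the 5 genes of the BRCA1 complex, 4 were higher in each tumor over all cells. Of all genes, 32.1% were higher in MT1 and 32.8% in MT2. At score 0, 3 of the 4 tested were higher in MT1 and 1 in MT2, against 30% and 33.2% of all genes. Bard1 encodes the partner subunit of the BRCA1 ubiquitin ligase. Its level was 0 in both MG1 libraries, 0.239 and 1.17 in MG2, 13.0, 9.03, 8.6, 10.6 and 9.31 in MT1 and 6.48, 9.12 and 6.53 CPM in MT2. Every tumor library lay above every gland library. It rose in MT2 by 3.34 ± 0.47 (adjusted p = 6.6e-06) and was at least 9.67-fold higher in MT1 than in MG1, and it was called at score 0 in MT2, at 2.41 ± 0.76 (adjusted p = 0.0098). That score 0 call rests on 3 UMIs in MG2, and it was lost without MG2 library 1 and without MT2 library 2. Brip1, the helicase that binds the BRCA1 BRCT repeats, was at 0 in both MG1 libraries, 4.07 and 3.76 in MG2, 2.36, 4.71, 6.72, 5.67 and 6.98 in MT1 and 8.25, 9.50 and 6.61 CPM in MT2. In MT2 it rose by 1.05 ± 0.33 (adjusted p = 0.0097), but at score 0 MT2 and MG2 overlapped and the log2 change was -0.04 ± 0.55 (adjusted p = 0.96). Its MT1 call at score 0 was lost once 3 UMIs were put into MG1. Brca2, which acts after resection, was at 12.1 and 0 in MG1, 10.5 and 16.7 in MG2, 25.4, 20.0, 25.0, 18.8 and 27.9 in MT1 and 63.4, 48.8 and 44.1 CPM in MT2. The 3 MT2 libraries stood highest and none overlapped the 5 MT1 libraries. Brca2 rose by 1.34 ± 0.41 in MT1 (adjusted p = 0.0086) and 1.93 ± 0.29 in MT2 (adjusted p = 1.3e-05), and at score 0 the changes were 0.78 ± 0.45 (adjusted p = 0.15) and 0.47 ± 0.34 (adjusted p = 0.24). Palb2, the bridge between BRCA1 and BRCA2, had few UMIs and was not called in either tumor.

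Of the 8 mediators of recombination, 5 were tested over all cells. Of these 5, 4 were higher in MT1 and 5 in MT2, against 32.1% and 32.8% of all genes. Rad51ap1, which stimulates strand invasion, was at 0 in both MG1 libraries, 0.718 and 2.11 in MG2, 19.5, 11.4, 16.3, 19.2 and 18.6 in MT1 and 23.5, 26.3 and 19.5 CPM in MT2. It rose in MT2 by 4.0 ± 0.36 (adjusted p = 3.2e-08) and was at least 17.0-fold higher in MT1 than in MG1. Of the 12 gland UMIs, 9 lay in the 37 MG2 cells of score 3 or more, so its MT2 change at score 0, 4.56 ± 0.89 (adjusted p = 0.0002), rests on 1 gland UMI. Rad51b, a subunit of the BCDX2 complex, was at 6.65 and 5.10 in MG1, 3.35 and 2.82 in MG2, 18.3, 13.7, 15.3, 18.4 and 16.3 in MT1 and 5.60, 6.97 and 5.98 CPM in MT2. It was higher in each tumor than in its own gland, and the MT1 libraries lay above all others. The rise was 1.38 ± 0.30 in MT1 (adjusted p = 0.00076) and 1.00 ± 0.28 in MT2 (adjusted p = 0.0039). At score 0 it was 1.43 ± 0.38 (adjusted p = 0.0035) and 1.45 ± 0.40 (adjusted p = 0.0039). Rad54b, a motor protein of recombination, was at 2.49 and 0 in MG1, 0.478 and 2.11 in MG2, 12.4, 7.06, 12, 12.7 and 12.2 in MT1 and 8.62, 9.73 and 6.69 CPM in MT2. It rose by 2.52 ± 0.57 in MT1 (adjusted p = 0.00099) and 2.66 ± 0.45 in MT2 (adjusted p = 4.7e-05). At score 0 it stayed called in MT1, at 2.49 ± 0.85 (adjusted p = 0.018), and in MT2 the change was 1.33 ± 0.71 (adjusted p = 0.11). Rad51c was listed at 0 in both glands and was at 2.36, 0.785, 2.50, 1.56 and 2.33 in MT1 and 3.39, 2.53 and 3.70 CPM in MT2. It was thus at least 1.98-fold higher in the tumor of mouse 1 and at least 9.01-fold higher in that of mouse 2. Rad54l rose in MT2 by 1.80 ± 0.51 (adjusted p = 0.0047) and gave -0.12 ± 0.64 in MT1 (adjusted p = 0.89). Rad51d, Xrcc2 and Xrcc3 failed the filter, with 0.291 to 2.21 CPM in the tumor libraries.

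Of the 6 end resection genes, all tested, 4 were higher and 1 lower in each tumor. Of all genes, 32.1% were higher and 27.1% lower in MT1, and 32.8% and 34.2% in MT2. Rbbp8 encodes CtIP, which starts resection. Its level was 91.9 and 85.1 in MG1, 90.4 and 91.1 in MG2, 104, 106, 129.9, 125 and 122 in MT1 and 256, 233 and 218 CPM in MT2. MT2 stood far above all other groups, and MT1 a little above MG1. The rise was 1.38 ± 0.15 in MT2 (adjusted p = 3.4e-07) and 0.40 ± 0.16 in MT1 (adjusted p = 0.034), a call that most single-library omissions removed. The difference between the mice was -0.98 ± 0.21 (adjusted p = 0.0013). At score 0 the MT2 rise was 1.29 ± 0.17 (adjusted p = 1.4e-06). The 3 genes of the MRN complex, which senses breaks, went different ways. Mre11a was at 17.9 and 15.3 in MG1, 16.5 and 17.6 in MG2, 42.5, 30.6, 36.1, 27.6 and 37.0 in MT1 and 48.3, 54.1 and 41.9 CPM in MT2. It rose by 1.00 ± 0.24 (adjusted p = 0.0017) and 1.49 ± 0.19 (adjusted p = 2.1e-06), and at score 0 by 0.66 ± 0.26 (adjusted p = 0.037) and 1.01 ± 0.22 (adjusted p = 0.00049). Rad50 was at 146 and 112 in MG1, 133 and 106 in MG2, 89.6, 87.5, 102, 111 and 94.0 in MT1 and 80.4, 65.2 and 64.7 CPM in MT2. All tumor libraries lay below all gland libraries of the same mouse.

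Rad50 fell, with a log2 change of -0.44 ± 0.17 in MT1 (adjusted p = 0.031) and -0.77 ± 0.17 in MT2 (adjusted p = 0.00051), and at score 0 with -0.73 ± 0.18 (adjusted p = 0.0023) and -1.19 ± 0.19 (adjusted p = 1.6e-05). Its gland level depended on the cell type, at 179.5 CPM (95% interval 168 to 192) in luminal hormone-sensing-like cells, 86.9 CPM (95% interval 78.8 to 95.6) in secretory-like cells and 76.2 CPM (95% interval 59.4 to 96.3) in basal-like cells. The part of gland make-up in this result was not tested. Nbn, the signalling subunit of MRN, was at 46.6 and 15.3 in MG1, 43.3 and 35.7 in MG2, 69.0, 53.0, 68.9, 64.9 and 71.6 in MT1 and 33.6, 36.1 and 32.3 CPM in MT2. It rose in MT1 by 0.84 ± 0.24 (adjusted p = 0.0064) and gave -0.22 ± 0.22 in MT2 (adjusted p = 0.39), and the difference between the mice was 1.06 ± 0.32 (adjusted p = 0.014). At score 0 the MT1 rise was 0.60 ± 0.24 (adjusted p = 0.038). Exo1, the exonuclease of long resection, was at 0 in both MG1 libraries, 0.718 and 1.88 in MG2, 14.7, 6.67, 11.7, 12.1 and 10.8 in MT1 and 8.18, 10.3 and 8.97 CPM in MT2. It rose in MT2 by 2.79 ± 0.41 (adjusted p = 1.1e-05), was at least 11.2-fold higher in MT1 than in MG1, and was called at score 0 in MT2 at 2.60 ± 0.90 (adjusted p = 0.017), where MG2 held 2 UMIs. Blm, a helicase of resection and of crossover control, rose in MT2 by 1.81 ± 0.25 (adjusted p = 4.7e-06), gave 0.36 ± 0.35 in MT1 (adjusted p = 0.39), and was not called at score 0 in either tumor.

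Of 9 Fanconi genes, 8 were tested over all cells. Of these, 4 were higher in MT1 and 3 in MT2, against 32.1% and 32.8% of all genes. In MT2, 1 was lower, against 34.2% of all genes. Fancb, an X-linked subunit of the core complex (chromosome X, 164980592 to 164997272, plus strand), was listed at 0 in both glands and was at 2.36, 0.785, 1.09, 1.17 and 2.04 in MT1 and 14.8, 18.2 and 14.9 CPM in MT2. MT2 held 627 UMIs and MT1 26. The MT2 level was at least 44.8-fold higher than that of MG2, and the MT1 level at least 1.35-fold higher than that of MG1. MT1 against MT2 gave -3.52 ± 0.26 (adjusted p = 4.0e-09). The contrast held at equal score, at -3.19 ± 0.57 in cells of score 0 (adjusted p = 8.7e-05) and -2.70 ± 0.29 in cells of score 3 or more (adjusted p = 6.1e-09). Fancc, another core subunit, was at 2.49 and 3.40 in MG1, 2.87 and 3.52 in MG2, 10.6, 10.2, 12.5, 10.2 and 13.7 in MT1 and 4.49, 3.60 and 5.11 CPM in MT2, with the MT1 libraries above all others. It rose in MT1 by 2.09 ± 0.41 (adjusted p = 0.00029) and at score 0 by 2.18 ± 0.48 (adjusted p = 0.00073), and in MT2 it gave 0.46 ± 0.30 (adjusted p = 0.19). Several noncoding genes overlap Fancc on both strands, and the sources used here do not state whether counting used strand.

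Fancl, the ligase that ubiquitylates FANCD2, was at 8.32 and 6.80 in MG1, 10.3 and 11 in MG2, 9.44, 10.2, 10.0, 9.19 and 11.6 in MT1 and 5.67, 7.97 and 5.82 CPM in MT2. It fell in MT2, with a log2 change of -0.72 ± 0.22 (adjusted p = 0.0091) and at score 0 with -1.18 ± 0.31 (adjusted p = 0.0023), and it gave 0.34 ± 0.31 in MT1 (adjusted p = 0.35). Fanca was at 0 in both MG1 libraries, 0.957 and 1.41 in MG2, 3.54, 3.53, 3.60, 4.11 and 2.33 in MT1 and 5.53, 5.67 and 4.72 CPM in MT2. It rose in MT2 by 2.14 ± 0.40 (adjusted p = 0.00013) and was at least 3.48-fold higher in MT1 than in MG1. Fancd2, the protein on which the core complex acts, was at 2.08 and 0 in MG1, 0.478 and 0.939 in MG2, 3.54, 0.785, 1.88, 3.52 and 3.78 in MT1 and 6.04, 7.28 and 5.35 CPM in MT2. It rose in MT2 by 3.09 ± 0.56 (adjusted p = 8.3e-05), and the 3 MT2 libraries lay above all others. Fance rose in MT1 by 0.86 ± 0.34 (adjusted p = 0.038), a call lost in most single-library omissions. Fancg was higher in MT1 than in MT2 by 1.53 ± 0.41 (adjusted p = 0.0029) and Fancm gave -0.81 ± 0.20 (adjusted p = 0.0015), and neither was called against its gland. Fanci failed the filter over all cells.

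Of 5 checkpoint genes, all tested, 2 were higher in MT1 and 3 in MT2, against 32.1% and 32.8% of all genes. In each tumor 1 was lower, against 27.1% of all genes in MT1 and 34.2% in MT2. Atr, the kinase of stalled forks, was at 18.7 and 25.5 in MG1, 14.4 and 16.9 in MG2, 6.49, 9.81, 8.44, 6.06 and 9.31 in MT1 and 12.2, 8.81 and 9.2 CPM in MT2. Every tumor library lay below every gland library. It fell, with a log2 change of -1.37 ± 0.28 in MT1 (adjusted p = 0.0004) and -0.63 ± 0.22 in MT2 (adjusted p = 0.018), and at score 0 with -1.37 ± 0.30 (adjusted p = 0.00066) and -0.90 ± 0.26 (adjusted p = 0.0057). Its activator Topbp1 was at 17.9 and 30.6 in MG1, 20.1 and 21.6 in MG2, 74.3, 49.8, 56.6, 56.1 and 56.2 in MT1 and 56.1, 68.9 and 53.5 CPM in MT2, with all tumor libraries above all gland libraries. It rose by 1.43 ± 0.24 (adjusted p = 7.5e-05) and 1.51 ± 0.20 (adjusted p = 3.2e-06), and at score 0 by 1.00 ± 0.28 (adjusted p = 0.0056) and 0.87 ± 0.25 (adjusted p = 0.0051). Chek1, the kinase downstream of ATR, was at 2.91 and 8.51 in MG1, 5.50 and 6.11 in MG2, 28.3, 16.1, 18, 23.1 and 23.9 in MT1 and 11.6, 10.6 and 9.36 CPM in MT2. Both tumors lay above their own glands, and MT1 above MT2. The rise was 2.37 ± 0.40 in MT1 (adjusted p = 6.8e-05) and 0.86 ± 0.28 in MT2 (adjusted p = 0.012), with a difference of 1.51 ± 0.52 between the mice (adjusted p = 0.025). At score 0 both rises were called, at 2.01 ± 0.53 (adjusted p = 0.0032) and 1.22 ± 0.40 (adjusted p = 0.011), although the MT1 and MG1 libraries overlapped there. Chek2 rose in MT2 by 2.24 ± 0.43 (adjusted p = 0.00014), and Atm was not called in either tumor.

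Of the 7 genes that mark break chromatin or protect ends from resection, 3 were lower in MT1 and 4 in MT2 over all cells, where 27.1% and 34.2% of all genes were, and the same numbers were lower at score 0, where 25.5% and 29.5% were. Mdc1, the adaptor that binds phosphorylated H2AX, was at 30.4 and 27.2 in MG1, 34.2 and 31.5 in MG2, 15.9, 8.24, 10.9, 10.2 and 12.8 in MT1 and 20.3, 19.8 and 17.6 CPM in MT2. Every tumor library lay below every gland library, and MT1 below MT2. It fell, with a log2 change of -1.38 ± 0.22 (adjusted p = 5.0e-05) and -0.77 ± 0.18 (adjusted p = 0.00091), and at score 0 with -1.71 ± 0.23 (adjusted p = 5.0e-06) and -1.17 ± 0.20 (adjusted p = 3.2e-05). Trp53bp1 was at 42.4 and 47.6 in MG1, 35.6 and 27.7 in MG2, 17.1, 17.7, 27.4, 18.6 and 25.9 in MT1 and 23.5, 18.8 and 17.5 CPM in MT2, again with no overlap of tumor and gland. It fell, with a log2 change of -1.01 ± 0.23 (adjusted p = 0.0011) and -0.67 ± 0.21 (adjusted p = 0.0082), and at score 0 with -0.97 ± 0.22 (adjusted p = 0.0011) and -0.79 ± 0.21 (adjusted p = 0.0028). Tubgcp4 overlaps Trp53bp1 on the other strand. Rif1, which acts with 53BP1, fell in MT1 over all cells and was not called in MT2. Its level was 137 and 139 in MG1, 123 and 112 in MG2, 63.7, 56.1, 73.3, 61.4 and 74.5 in MT1 and 173, 115 and 129 CPM in MT2. MT1 lay below all other groups, and MT2 overlapped MG2. The change was -1.06 ± 0.17 in MT1 (adjusted p = 5.4e-05) and 0.24 ± 0.18 in MT2 (adjusted p = 0.24), and their difference was -1.30 ± 0.25 (adjusted p = 0.00042), with -1.31 ± 0.26 at score 0 (adjusted p = 0.00052). In cells of score 0 by the wider list it was called lower in MT2 too, at -0.50 ± 0.20 (adjusted p = 0.036).

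Rnf8 and Rnf168 are the ligases that ubiquitylate histones at breaks. Rnf168 was at 43.7 and 49.3 in MG1, 45.0 and 48.1 in MG2, 63.7, 46.7, 57.7, 58.8 and 62.3 in MT1 and 25.9, 26.9 and 21.9 CPM in MT2. The 3 MT2 libraries lay below all others. It fell in MT2, with a log2 change of -0.90 ± 0.16 (adjusted p = 7.5e-05) and at score 0 with -1.31 ± 0.20 (adjusted p = 8.1e-06), and gave 0.34 ± 0.18 in MT1 (adjusted p = 0.11), a difference of 1.25 ± 0.24 (adjusted p = 0.00044). Rnf8 was at 12.1 and 11.9 in MG1, 17.5 and 14.8 in MG2, 9.44, 9.03, 9.38, 8.6 and 10.8 in MT1 and 9.36, 9.57 and 9.6 CPM in MT2. It fell in MT2, with a log2 change of -0.76 ± 0.18 (adjusted p = 0.0012) and at score 0 with -0.62 ± 0.25 (adjusted p = 0.036). H2afx, the histone variant phosphorylated at breaks, was at 4.99 and 5.10 in MG1, 14.1 and 20.7 in MG2, 67.2, 32.6, 42.0, 50.8 and 63.7 in MT1 and 28.7, 50.1 and 33.9 CPM in MT2. It rose by 3.33 ± 0.46 in MT1 (adjusted p = 8.6e-06) and 1.11 ± 0.29 in MT2 (adjusted p = 0.0026). At score 0 the MT1 rise was 2.40 ± 0.42 (adjusted p = 7.8e-05), while MT2 gave -0.02 ± 0.29 (adjusted p = 0.97) with overlapping groups. Mad2l2 (REV7), a subunit of the shieldin complex, was at 10.8 and 5.10 in MG1, 14.1 and 14.8 in MG2, 28.9, 18.4, 22.7, 29.1 and 21.5 in MT1 and 14.1, 19.1 and 14.5 CPM in MT2. It rose in MT1 by 1.35 ± 0.31 (adjusted p = 0.0012) and at score 0 by 1.26 ± 0.33 (adjusted p = 0.0032), and gave 0.14 ± 0.23 in MT2 (adjusted p = 0.6).

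**Figure D3:**
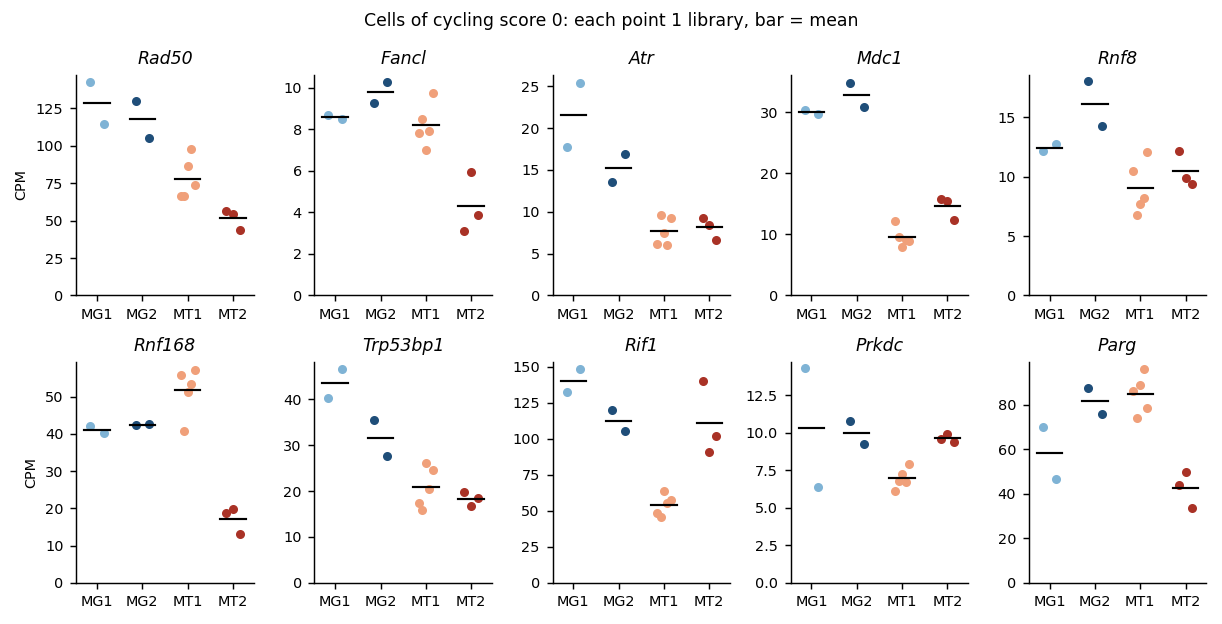
Level (CPM, y axis) in cells of score 0 of the 10 members lower there in MT1 or MT2, with 1 point for each library and a bar at the group mean. Mdc1, Atr, Trp53bp1 and Rad50 lie lower in both tumors, Rif1 in MT1, and Rnf168, Parg and Fancl in MT2.

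Levels of these genes varied among gland cell types, whose part in the result was not tested. Pooled over MG1 and MG2, Trp53bp1 was at 44.1 CPM (95% interval 38.5 to 50.4) in hormone-sensing-like cells and 26.3 CPM (95% interval 21.9 to 31.3) in secretory-like cells. Mdc1 was at 31.1 CPM (95% interval 26.4 to 36.4), 31.2 CPM (95% interval 26.4 to 36.6) and, in basal-like cells, 55.5 CPM (95% interval 41.3 to 73.0). The pooled Mdc1 level was 10.2 CPM (95% interval 8.08 to 12.6) in the largest MT1 cluster and 12.3 CPM (95% interval 10.9 to 13.9) in the largest MT2 cluster, below each of these gland types. In the MT2 cluster of 4157 cells, with Top2a and Mki67 among its top genes, it was 25.4 CPM (95% interval 23.2 to 27.8). That interval overlapped those of the hormone-sensing-like and secretory-like gland cells. Rif1 was at 113 CPM (95% interval 104 to 123), 128 CPM (95% interval 118 to 139) and 193 CPM (95% interval 165 to 223) in the same order, and at 51.3 CPM (95% interval 46.4 to 56.5) in that MT1 cluster.

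Of 5 end joining genes, all tested, 3 were higher in MT1 and 2 in MT2 over all cells, against 32.1% and 32.8% of all genes. Lig4, the ligase of end joining, was at 7.07 and 5.10 in MG1, 4.78 and 5.64 in MG2, 13.6, 14.1, 9.53, 14.1 and 11.9 in MT1 and 9.72, 9.88 and 9.52 CPM in MT2. It rose by 0.91 ± 0.31 in MT1 (adjusted p = 0.018) and 0.89 ± 0.25 in MT2 (adjusted p = 0.0038), and at score 0 by 0.96 ± 0.36 (adjusted p = 0.029) and 0.92 ± 0.31 (adjusted p = 0.013). Xrcc6 (Ku70), of the Ku ring that binds DNA ends, was at 18.3 and 5.10 in MG1, 14.6 and 16.4 in MG2, 31.3, 31.8, 34.4, 32.3 and 28.2 in MT1 and 17.4, 21.2 and 17.5 CPM in MT2. It rose in MT1 by 1.09 ± 0.26 (adjusted p = 0.0016) and gave 0.27 ± 0.21 in MT2 (adjusted p = 0.27). Its partner Xrcc5 (Ku80) was at 30.8 and 11.9 in MG1, 28.5 and 24.7 in MG2, 24.8, 21.6, 29.9, 25.2 and 26.8 in MT1 and 34.8, 37.6 and 34.5 CPM in MT2. It was not called over all cells, and at score 0 it rose in MT2 by 0.65 ± 0.22 (adjusted p = 0.017), a call lost in most single-library omissions. Prkdc, the kinase that Ku recruits, was at 13.7 and 8.51 in MG1, 11 and 8.92 in MG2, 9.44, 7.06, 7.35, 7.82 and 7.28 in MT1 and 11.1, 9.57 and 6.92 CPM in MT2, and at score 0 it fell in MT1, with a log2 change of -0.81 ± 0.31 (adjusted p = 0.032). Without MG1 library 1 the Prkdc change turned to 0.18, so it rests on that library. Polq, the polymerase of theta-mediated joining, was at 0 in both MG1 libraries, 0.239 and 0.939 in MG2, 2.36, 2.35, 3.13, 3.13 and 5.24 in MT1 and 4.79, 5.21 and 3.54 CPM in MT2. It rose in MT2 by 2.89 ± 0.55 (adjusted p = 0.00018), against 5 UMIs in MG2, and was at least 3.33-fold higher in MT1 than in MG1.

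In the PARP group, Parp1, the main sensor of strand breaks, was at 30.4 and 28.9 in MG1, 35.2 and 41.6 in MG2, 87.9, 62.0, 73.5, 71.7 and 79.2 in MT1 and 85.5, 98.6 and 81.3 CPM in MT2. All tumor libraries lay above all gland libraries. It rose by 1.32 ± 0.20 (adjusted p = 2.2e-05) and 1.2 ± 0.17 (adjusted p = 5.4e-06), and at score 0 by 0.90 ± 0.21 (adjusted p = 0.0014) and 0.91 ± 0.18 (adjusted p = 0.00021). Parg, the hydrolase that removes poly(ADP-ribose), was at 72.4 and 40.8 in MG1, 92.8 and 78.0 in MG2, 92.6, 77.7, 88.3, 97.0 and 75.1 in MT1 and 44.3, 50.4 and 34.3 CPM in MT2, with the MT2 libraries below those of MG2 and MT1. It fell in MT2, with a log2 change of -0.99 ± 0.19 (adjusted p = 0.0002) and at score 0 with -0.94 ± 0.19 (adjusted p = 0.0002), and gave 0.50 ± 0.21 in MT1 (adjusted p = 0.052). The difference between the mice was 1.48 ± 0.29 (adjusted p = 0.00045), and 1.39 ± 0.27 at score 0 (adjusted p = 0.00045). Xrcc1, the scaffold of single-strand repair, was at 3.33 and 6.80 in MG1, 7.89 and 10.1 in MG2, 8.26, 14.5, 14.8, 12.1 and 9.90 in MT1 and 9.50, 10.7 and 10.1 CPM in MT2. It rose in MT1 by 1.58 ± 0.40 (adjusted p = 0.0024), gave 0.17 ± 0.25 in MT2 (adjusted p = 0.57), and at score 0 the mice differed by 1.87 ± 0.52 (adjusted p = 0.0073). Parp2 and Lig3 were not called in either tumor. Slfn9, a Schlafen family gene, was at 4.16 and 8.51 in MG1, 10.0 and 5.87 in MG2, 28.3, 16.5, 22, 20.3 and 24.7 in MT1 and 63.8, 50.7 and 48.9 CPM in MT2. It rose by 2.10 ± 0.38 (adjusted p = 0.00014) and 2.77 ± 0.25 (adjusted p = 2.3e-08), and at score 0 by 1.59 ± 0.41 (adjusted p = 0.0029) and 2.01 ± 0.31 (adjusted p = 1.4e-05). With stromal cells included its MT1 change at score 0 turned to -0.16. Of its 67 MG2 UMIs, 28 came from gland cells that clustered with tumor cells, the fibroblast-like gland cells held 50 CPM (95% interval 36.1 to 67.6), and close paralogs make its count uncertain.

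Inside each tumor, cells of score 3 or more were compared with cells of score 0 of the same library. In MT1, 34 of 47 tested members were higher and 0 lower by edgeR (29 and 0 by DESeq2, 35 at an unadjusted p under 0.05 in either direction), where 14.5% of all 11957 genes were higher and 13.2% lower. In MT2, 35 were higher and 0 lower (31 and 0 by DESeq2, 37 at an unadjusted p under 0.05), against 13.0% and 18.4% of all genes. The median member rose by 0.88 in MT1 and 0.93 in MT2, and the median of all genes was -0.03 and -0.07. Among the steepest were Rad51ap1, at 3.10 ± 0.21 in MT1 and 3.32 ± 0.18 in MT2, Brca1, at 2.95 ± 0.26 and 2.73 ± 0.25, and Exo1, at 2.66 ± 0.24 and 3.15 ± 0.27. All of these were called in both tumors. H2afx, Bard1, Brip1, Blm, Rad54b, Rad54l, Fancd2 and Fancb rose by 2.25 to 3.00 in both tumors. Rbbp8 rose by 0.43 ± 0.09 and 0.32 ± 0.06, and Rif1 by 0.71 ± 0.11 and 0.55 ± 0.07. Mdc1 and Rad50, lower in both tumors than in the glands, also rose with the score, by 0.75 ± 0.26 and 0.79 ± 0.15 for Mdc1 and 0.90 ± 0.09 and 0.78 ± 0.08 for Rad50. The 11 members called in neither tumor were Rad51b, Fancc, Fance, Atm, Rnf8, Trp53bp1, Mad2l2, Prkdc, Lig4, Parg and Lig3. Cells of higher score were also deeper, with a median of 2944 UMIs against 2010 in MT1 and 4027 against 2625 in MT2, and when each cell was thinned to 1000 UMIs for scoring the count in MT1 went from 34 to 17.

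**Figure D4:**
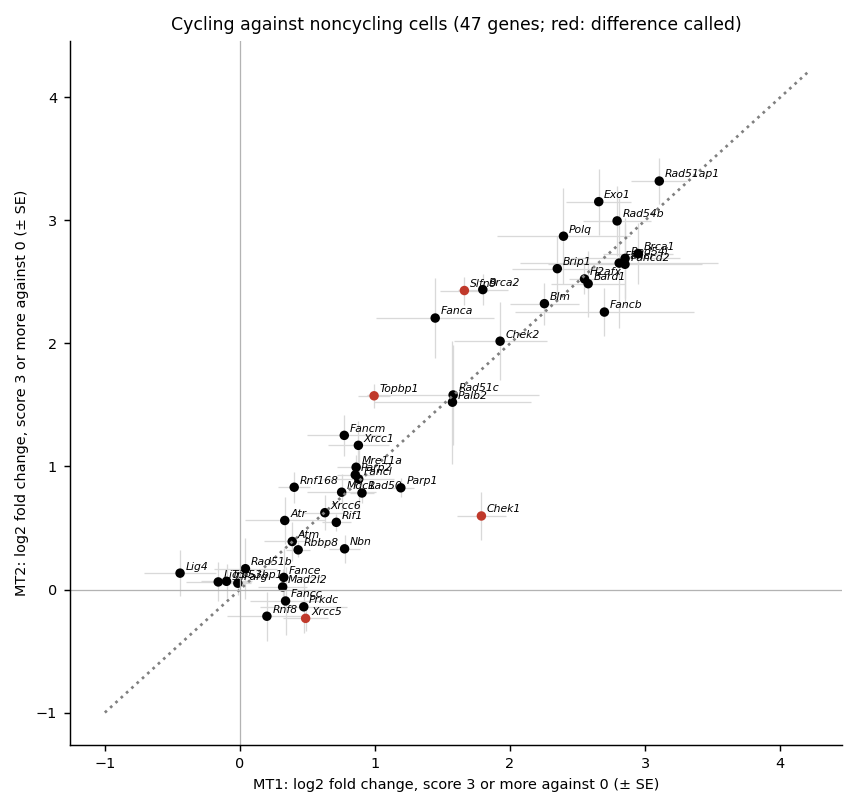
Log2 fold change of cells of score 3 or more against score 0 in MT1 (x axis) and MT2 (y axis), ± SE, for the 47 members tested, with the dotted line at equal change. Most points follow the line, and the 4 in red (Chek1, Topbp1, Xrcc5 and Slfn9) are those whose change differed between the tumors.

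The change with the score differed between the tumors for 4 members, against 5.18% of all genes. Chek1 rose by 1.79 ± 0.18 in MT1 (adjusted p = 3.2e-12) and by 0.60 ± 0.19 in MT2 (adjusted p = 0.013), a difference of 1.19 ± 0.27 (adjusted p = 0.0028). In MT1 the mean Chek1 level went from 12.7 ± 3.46 CPM at score 0 to 45.7 ± 13.3 CPM at scores of 5 to 9 (mean ± SD, n = 5), and in MT2 from 7.71 ± 1.67 to 13.2 ± 2.96 CPM (n = 3). The MT1 mean was highest at a score of 2, where the 5 libraries held 11, 2, 8, 12 and 8 Chek1 UMIs. Xrcc5 differed by 0.72 ± 0.20 (adjusted p = 0.015), Slfn9 by -0.77 ± 0.21 (adjusted p = 0.02) and Topbp1 by -0.58 ± 0.15 (adjusted p = 0.013). After thinning edgeR called 0 of the 48 members then tested (4 at an unadjusted p under 0.05), and with the score as counted DESeq2 called Chek1 alone. Brca1 rose with the score in both tumors. It went from 4.31 ± 1.57 CPM at score 0 to 25.1 ± 14.8 at a score of 2 and 36.2 ± 11.1 at 5 to 9 in MT1. In MT2 it went from 2.31 ± 0.681 to 6.56 ± 6.25 and 14.5 ± 6.76 CPM. At scores of 10 or more the mean MT1 levels of Brca1 and Chek1 lay below those at 5 to 9. There the 5 MT1 libraries held 0, 5, 12, 5 and 1 Brca1 UMIs and 0, 7, 19, 7 and 5 Chek1 UMIs. Trp53bp1 stayed between 14.1 and 30.8 CPM in MT1 and between 16.8 and 26.6 CPM in MT2 at all scores.

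**Figure D5:**
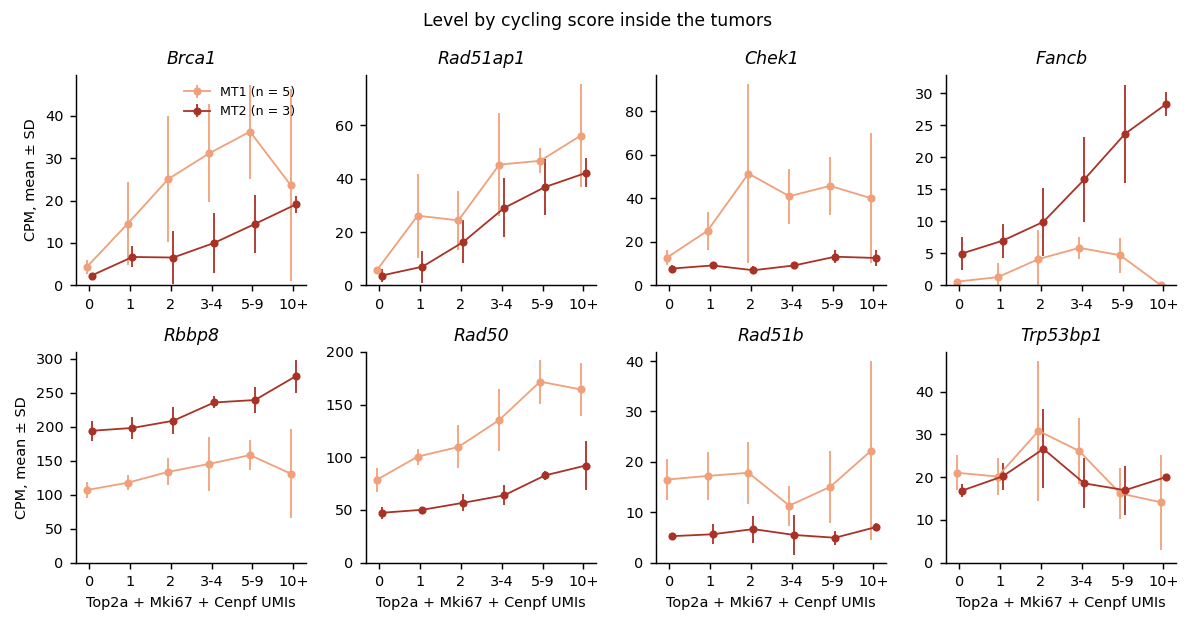
Mean level (CPM, y axis, ± SD over libraries) of 8 members by cycling score (x axis) in MT1 (n = 5) and MT2 (n = 3). Rad51ap1 climbs with the score in both tumors, and Brca1 and Fancb climb in MT2. In MT1, Brca1 climbs up to scores of 5 to 9, Chek1 is highest at a score of 2, and Fancb had 0 UMIs in each library at 10 or more. Rbbp8 lies higher in MT2 and Rad50 and Rad51b in MT1 at each score, and Trp53bp1 shows no climb.

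The tumors were then compared with each other at equal score. Over all cells, 12 members were higher in MT1 and 13 in MT2, against 35.3% and 33.1% of all genes. At score 0, 14 were higher in MT1 and 5 in MT2, against 31.0% and 32.3%. At scores of 1 to 2, 18 of 33 were higher in MT1 and 2 in MT2, against 30.6% and 30.2%. At 3 or more, 16 of 42 were higher in MT1 and 9 in MT2, against 32.9% and 32.5%. The members called in the same direction over all cells, at score 0 and at 3 or more were Rad51b, Nbn, Rad50, Fancc, Fancl, Rnf168, Xrcc6 and Parg, higher in MT1, and Rbbp8, Fancb, Mdc1 and Rif1, higher in MT2. With the wide list the Mdc1 change at score 0 turned to 0.17. Rnf168 gave 1.21 ± 0.13 over all cells, 1.59 ± 0.17 at score 0 and 1.19 ± 0.15 at 3 or more (adjusted p = 2.1e-07, 7.6e-08 and 1.3e-07). Rif1 gave -1.07 ± 0.14, -1.01 ± 0.15 and -0.80 ± 0.16 (adjusted p = 2.2e-06, 7.9e-06 and 9.2e-05). Brca1 gave 0.06 ± 0.20 over all cells (adjusted p = 0.97), 0.62 ± 0.41 at score 0 (adjusted p = 0.19) and 0.79 ± 0.21 at 3 or more (adjusted p = 0.0017). The S phase genes also differed at equal score, with 9 of 16 higher in MT1 at score 0 and 2 higher in MT2, and their part in these contrasts was not tested.

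Cycling gland cells were few. At scores of 1 to 2 only 2 of 33 tested members were called in MT1 against MG1 (Rbbp8 and Topbp1) where 18.8% of all genes were, and MG1 was then 1 library of 22 cells. In MT2 against MG2, 3 were called (Rbbp8, Rnf168 and Slfn9) where 42.0% of all genes were. At scores of 3 or more no gland library reached the minimum of 20 cells. With a minimum of 10, an alternative chosen after seeing the data, the MG2 libraries of 19 and 18 cells entered, and 12 of their 37 cells lay in clusters of tumor cells. Of the 50 MG2 cells of any score in such clusters, 44 lay in a cluster with 1344 MT1 cells and 13 MT2 cells. Chek1 had 17 UMIs in the MG2 cells of score 3 or more. Of its 49 UMIs in all MG2 cells, 14 came from cells in clusters of tumor cells. The part of these cells in the result was not tested. MT2 against MG2 then gave 8 calls among 40 tested members, against 28.4% of all genes. Chek1 was lower in cycling MT2 cells than in cycling MG2 cells (log2 change -2.01 ± 0.45, adjusted p = 0.0011), as were Rad51b (-1.93 ± 0.71, adjusted p = 0.042), H2afx (-1.06 ± 0.34, adjusted p = 0.021), Rnf168 (-1.63 ± 0.34, adjusted p = 0.00068) and Parg (-1.48 ± 0.33, adjusted p = 0.0012). Rbbp8 (0.97 ± 0.24, adjusted p = 0.003) and Mre11a (2.02 ± 0.53, adjusted p = 0.0045) were higher there, and Fancb was listed at 0 in MG2.

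A list of 60 other measured genes of recombination, fork protection, checkpoint signalling and end joining, such as Rpa1, Timeless and Xrcc4, was counted in the same fits. Over all cells 31 of 57 tested were higher and 0 lower in MT1 by edgeR (25 and 2 by DESeq2), against 32.1% and 27.1% of all genes. In MT2, 29 were higher and 8 lower, against 32.8% and 34.2%, with medians in MT1 and MT2 of 0.98 and 0.68 (log2). At score 0, 23 of 53 were higher and 0 lower in MT1 by edgeR (18 and 2 by DESeq2), against 30% and 25.5% of all genes, and 20 were higher and 9 lower in MT2, against 33.2% and 29.5%, with medians of 0.80 and 0.46. Inside the tumors 22 of 56 rose with the score in MT1 and 27 in MT2, against 14.5% and 13.0% of all genes, and 1 was lower in each. Their summed level was 881 to 1181 CPM in the glands and 1942 to 2170 CPM in the tumors over all cells, and 875 to 1142 against 1682 to 1944 CPM at score 0.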

How the data were processed

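Drop-seq libraries of 12 samples were sequenced and processed by the authors with Drop-seq tools and STAR against GRCm38.p6, and the deposited table holds raw UMI counts per gene and cell. Each cell was tied to a library by its label. Whether counting used strand is not given in the sources used here. From these counts, cells were clustered, 4 stromal clusters were set aside, and counts were summed per library and cycling score for sums of at least 20 cells. Sums were tested with edgeR 4.0.16 (filterByExpr, TMM, quasi-likelihood F test, 4 groups in 1 fit, Benjamini-Hochberg threshold 0.05), and standard errors were derived from F. DESeq2, other scalings and filters, other scores, thinning, leaving out the 5% of cells of highest UMI count and leaving out each library were alternatives. No doublet caller was run. The code was tested on simulated data. Library depth was 693333 to 14841414 UMIs, and Poisson intervals (95%) cover counting error only. The members and lists were chosen with earlier results of these data known. Named genes were Brca1 and, in order of role, the members called over all cells in either tumor against its gland, in the difference between mice or between tumors, up to 35, and the 12 with the largest change and those called at score 0 got values per library. Since 42 members met the rule, Xrcc6, Lig4, Polq, Parp1, Parg, Xrcc1 and Slfn9, the last in role order, go past that limit. The other members are named to account for all 51. Replicate numbers follow accession order, and the mouse, which the paper states for each group label, is the only pairing.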

Additional observations from a re-analysis of the deposited data

Results flagged for a closer look

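Within the 5 MT1 libraries, 5 of the 51 members had 1 library far from the rest by Dixon's test, a test that chance alone passes in about 1 in 20 groups. MT1 library 2 was low for Xrcc2, at 0.392 CPM against 1.56 to 2.04 CPM in the others, for Rad54b, at 7.06 against 12 to 12.7 CPM, and for Fancm, at 6.28 against 10.2 to 11.2 CPM. That Xrcc2 level rests on 1 UMI, of 30 Xrcc2 UMIs in MT1, and Xrcc2 failed the filter on low counts. MT1 library 1 was high for Topbp1, at 74.3 against 49.8 to 56.6 CPM. MT1 library 5 was high for Polq, at 5.24 against 2.35 to 3.13 CPM.

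The tumor against gland change over all cells differed between the mice, by the interaction term of edgeR's quasi-likelihood fit, for the following members that were not listed at 0 in a gland. The log2 change in mouse 1 minus that in mouse 2 was positive for H2afx (2.22), Fancc (1.63), Chek1 (1.51), Parg (1.48), Xrcc1 (1.41), Rnf168 (1.25), Mad2l2 (1.21), Nbn (1.06) and Fancl (1.06). It was negative for Blm (-1.46), Rif1 (-1.30) and Rbbp8 (-0.98). For Parg, Rnf168 and Fancl the tumor was called lower in mouse 2, and for Rif1 in mouse 1. Each mouse gave 1 gland and 1 tumor, so mouse and tumor cannot be told apart. Inside the tumors, the change from score 0 to 3 or more differed by the same kind of term for Chek1 (1.19), Xrcc5 (0.72), Slfn9 (-0.77) and Topbp1 (-0.58).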

How the results depend on the processing

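Over all cells, the members called in each comparison kept their direction under every alternative run. Leaving out 1 library at a time, the counts of called members ran over all cells from 22 to 32 for MT1 against MG1, 27 to 34 for MT2 against MG2, 8 to 15 for their difference, 20 to 29 for MT1 against MT2 and 33 to 37 for the mean of both mice. At score 0 they ran from 13 to 26, 14 to 24, 6 to 12, 16 to 22 and 26 to 31 in the same order. For the cycling contrast they ran from 29 to 34 in MT1, 30 to 36 in MT2 and 1 to 5 for the difference. With 4 sums and the mouse as replicate block, the mean of both mice gave 0 called members over all cells (35 without it) and 0 at score 0 (27 without it).

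Scoring by the wide list gave, at score 0, 8 called members for MT1 against MG1, 9 for MT2 against MG2, 5 for the difference, 12 for MT1 against MT2 and 11 for the mean, where 27 members were tested in place of 41. At scores of 1 to 2 it gave 9, 11 and 8, against 2, 3 and 2. It gave 23 for the cycling contrast in MT2. Scoring after thinning gave 13 for MT1 against MT2 at 3 or more, 17 for the cycling contrast in MT1 and 0 for its difference, which DESeq2 put at 1 and a cut of 5 or more at 2. Signs turned for Prkdc at score 0 in MT1 without MG1 replicate 1 (0.18, and -1.10 at the other end of such omissions), Slfn9 at score 0 in MT1 with stromal cells included (-0.16) and Mdc1 in MT1 against MT2 at score 0 by the wide list (0.17). After thinning they turned for Rnf168 (-0.087) and Xrcc5 (-0.21) in MT1 cycling cells and for the cycling differences of Slfn9 (0.085) and Xrcc5 (-0.13). Apart from the number of members tested, the cause was not tested. The fill of 3 UMIs and the minimum of 10 cells were chosen after seeing the data. Depth limits the members listed at 0 in MG1, where 1 UMI in library 2 is 1.70 CPM.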
